A study of Mus musculus with 58 samples.

Results

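Described here are 9 genes that mark mesothelium, the covering of serous surfaces, in mouse diaphragm and, for comparison, in a limb muscle. Msln, Upk3b, Upk1b, Gpm6a, Krt19, Wt1, Lrrn4, Muc16 and Pkhd1l1 were taken by name, through the gene symbol that the platform annotation pairs with each probe set. All 9 were found, each with 1 probe set, among 23185 named genes on the array.

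Mesothelium is a thin sheet of flattened epithelial cells of mesodermal origin that lines the pleural and peritoneal cavities and covers the organs within them. The diaphragm bears pleural mesothelium on its thoracic face and peritoneal mesothelium on its abdominal face, whereas the tibialis anterior, in the shin, has no serous covering. Mesothelial cells carry keratins, intercellular junctions and a coat of membrane glycoproteins and mucins on the free surface, and after injury or inflammation they can take on mesenchymal features. On the abdominal face of the diaphragm the sheet lies over lymphatic vessels that drain the peritoneal cavity.

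The arrays came from adult female NSG mice, a strain that lacks mature lymphocytes and so accepts human tissue. In 4 cohorts, pieces of a pancreatic ductal adenocarcinoma removed from a patient with cachexia were fixed to the pancreas (PDX, patient-derived xenograft), and control mice had a sham operation with no tumour. Each cohort stands for the tumour of 1 patient, so cohort and tumour cannot be told apart, and PDX mice were taken when cachexia was severe or the tumour had outgrown a set size. Per muscle there were 3 sham arrays in each cohort (12 in all) and 3, 5, 5 and 4 PDX arrays in cohorts 1 to 4 (17 in all), which gave 58 arrays over both muscles. The labels do not identify the mice, so the p-values below rest on the spread from array to array, part of which may be technical.

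Values are log2 expression as deposited, and the array medians lay between 3.70 and 3.86. The closest pair of arrays correlated at 0.993, and none were duplicates. As a measure of background, the 95th percentile of 1082 olfactory receptor genes was 3.55 in sham tibialis anterior, 3.58 in PDX tibialis anterior, 3.42 in sham diaphragm and 3.49 in PDX diaphragm. The labelled tissue was checked against markers of other cells, and many diaphragm arrays carried hepatocyte RNA. All 13 listed hepatocyte genes were called higher in sham diaphragm than in sham tibialis anterior, against 15.2 percent of all genes. Without the arrays over the margin defined below, 2 of 13 were, where 25.1 percent of all genes were called in either direction. With only arrays whose mean of the 13 was under 5, 5 of 13 were, where 24.4 percent of all genes were called. The median difference of the 13 was 0.77 and 0.47 in these settings, against 3.31 over all arrays. The mean of the 13 ran from 3.88 to 10.8 (median 6.05) over sham diaphragm arrays and from 3.97 to 11.1 (median 6.67) over PDX diaphragm arrays. It exceeded the median of its muscle by more than 1 log2 unit, called the margin below, on 5 sham and 6 PDX diaphragm arrays and on 1 sham and 3 PDX tibialis anterior arrays. In the diaphragm no hepatocyte gene was called between PDX and sham by limma (0 of 13, and 0 at an unadjusted p under 0.05). The SE of these differences ran from 0.66 (Cyp2e1) to 1.37 (Serpina1c) on the log2 scale. The missing calls therefore do not show that PDX and sham arrays carried equal hepatocyte RNA.

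The first comparison asks how far the markers set the diaphragm apart from the limb muscle in mice without a tumour. All 9 genes were higher in sham diaphragm than in sham tibialis anterior, by 1.64 (Wt1) to 4.62 (Pkhd1l1) on the log2 scale, with a median of 3.40 against -0.085 over all genes. Limma called all 9 higher at an adjusted p under 0.05, against 15.2 percent of all genes called higher (39.7 percent in either direction). For each of the 9 the lowest sham diaphragm array lay above the highest sham tibialis anterior array, which held for 2.62 percent of all genes. In sham tibialis anterior the means of Msln, Upk1b, Gpm6a, Krt19, Lrrn4, Muc16 and Pkhd1l1 lay under the background measure, so those differences are lower bounds in size, while Upk3b and Wt1 lay above it. Bulk RNA cannot tell a larger number of mesothelial cells from more RNA per cell.

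Among the glycoproteins of the free surface, Msln encodes mesothelin, which is held to the membrane by a lipid anchor, and Muc16 encodes a very large membrane mucin that binds mesothelin. Msln (NCBI Gene 56047) ran from 4.88 to 5.81 (median 5.22) over the 12 sham diaphragm arrays and from 2.86 to 3.45 (median 3.33) over the 12 sham tibialis anterior arrays. Its difference was 2.03 (SE 0.12), or 4.07-fold, with a limma adjusted p of 1.95e-19. Every diaphragm array stood clear of every limb muscle array, and the cohort differences were 2.56, 1.66, 1.80 and 2.08 in cohorts 1 to 4. Muc16 (NCBI Gene 73732) ran from 4.26 to 5.25 (median 4.95) in sham diaphragm and from 1.80 to 2.72 (median 2.27) in sham tibialis anterior. Its difference was 2.52 (SE 0.16), or 5.75-fold, with a limma adjusted p of 2.15e-17, and the groups did not overlap.

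Upk3b and Upk1b encode uroplakins, membrane proteins best known from the plaques of the bladder lining. Upk3b (NCBI Gene 100647) ran from 7.42 to 9.05 (median 8.24) in sham diaphragm and from 4.01 to 4.78 (median 4.47) in sham tibialis anterior. The difference was 3.77 (SE 0.16), or 13.7-fold, with a limma adjusted p of 2.13e-24. Sham diaphragm also varied by cohort, with 3 values of 8.58 to 9.05 in cohort 1 and of 7.42 to 7.76 in cohort 3, which did not overlap. These cohorts were picked after their values were seen, and the share of all genes so separated was not counted. Msln, Upk1b, Gpm6a, Krt19 and Lrrn4 did not overlap between them either, while Wt1, Muc16 and Pkhd1l1 did. Upk1b (NCBI Gene 22268), of the tetraspanin family, ran from 6.03 to 7.45 (median 6.97) in sham diaphragm and from 3.06 to 3.67 (median 3.44) in sham tibialis anterior, a difference of 3.40 (SE 0.14), or 10.6-fold (limma adjusted p = 6.17e-25). The other uroplakins did not share this pattern: of Upk1a, Upk2, Upk3a and Upk3bl, 0 were called higher and 1 lower, against 15.2 and 24.5 percent of all genes. The gene called lower was Upk1a at -0.58 (SE 0.095, limma adjusted p = 2.87e-06), with a diaphragm mean of 3.30, under the background measure. Without the arrays over the hepatocyte margin 2 of the 4 were lower, where 25.1 percent of all genes were called in either direction. The mean of those 4 lay between 3.31 and 3.62 on the sham diaphragm arrays, across the background measure.

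Gpm6a and Lrrn4 encode membrane proteins first described in neurons, a glycoprotein that spans the membrane several times and a protein with leucine-rich repeats, and Pkhd1l1 encodes a very large membrane protein related to fibrocystin. Pkhd1l1 (NCBI Gene 192190) ran from 6.90 to 8.19 (median 7.48) in sham diaphragm and from 2.67 to 3.15 (median 3.03) in sham tibialis anterior. Its difference of 4.62 (SE 0.14), or 24.5-fold, had a limma adjusted p of 2.71e-30. Gpm6a (NCBI Gene 234267) ran from 6.81 to 8.19 (median 7.71) in sham diaphragm and from 3.09 to 3.97 (median 3.56) in sham tibialis anterior. Its difference of 4.15 (SE 0.13), or 17.8-fold, had a limma adjusted p of 1.03e-29. Lrrn4 (NCBI Gene 320974) had the widest spread of the 9 in sham diaphragm, from 4.88 to 6.77 (median 6.09), against 1.92 to 3.03 (median 2.45) in sham tibialis anterior. Its difference was 3.50 (SE 0.18), or 11.3-fold (limma adjusted p = 4.72e-21), without overlap of the groups.

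Krt19 encodes a keratin of simple epithelia and Wt1 a zinc finger transcription factor active in mesothelium from its development on. Krt19 (NCBI Gene 16669) ran from 4.29 to 5.93 (median 5.26) in sham diaphragm and from 2.73 to 3.74 (median 3.13) in sham tibialis anterior, a difference of 2.00 (SE 0.17), or 4.00-fold (limma adjusted p = 8.49e-14). Wt1 (NCBI Gene 22431) ran from 5.50 to 6.58 (median 5.83) in sham diaphragm and from 3.79 to 4.61 (median 4.35) in sham tibialis anterior. The difference of 1.64 (SE 0.12), or 3.12-fold, had a limma adjusted p of 9.57e-16. The 9 calls held without the arrays over the hepatocyte margin (median difference 3.44 over the 9) and with the hepatocyte mean as a covariate (median 3.67). The plot of the 9 genes on each array shows the gap between the muscles for every gene.

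**Figure D1:**
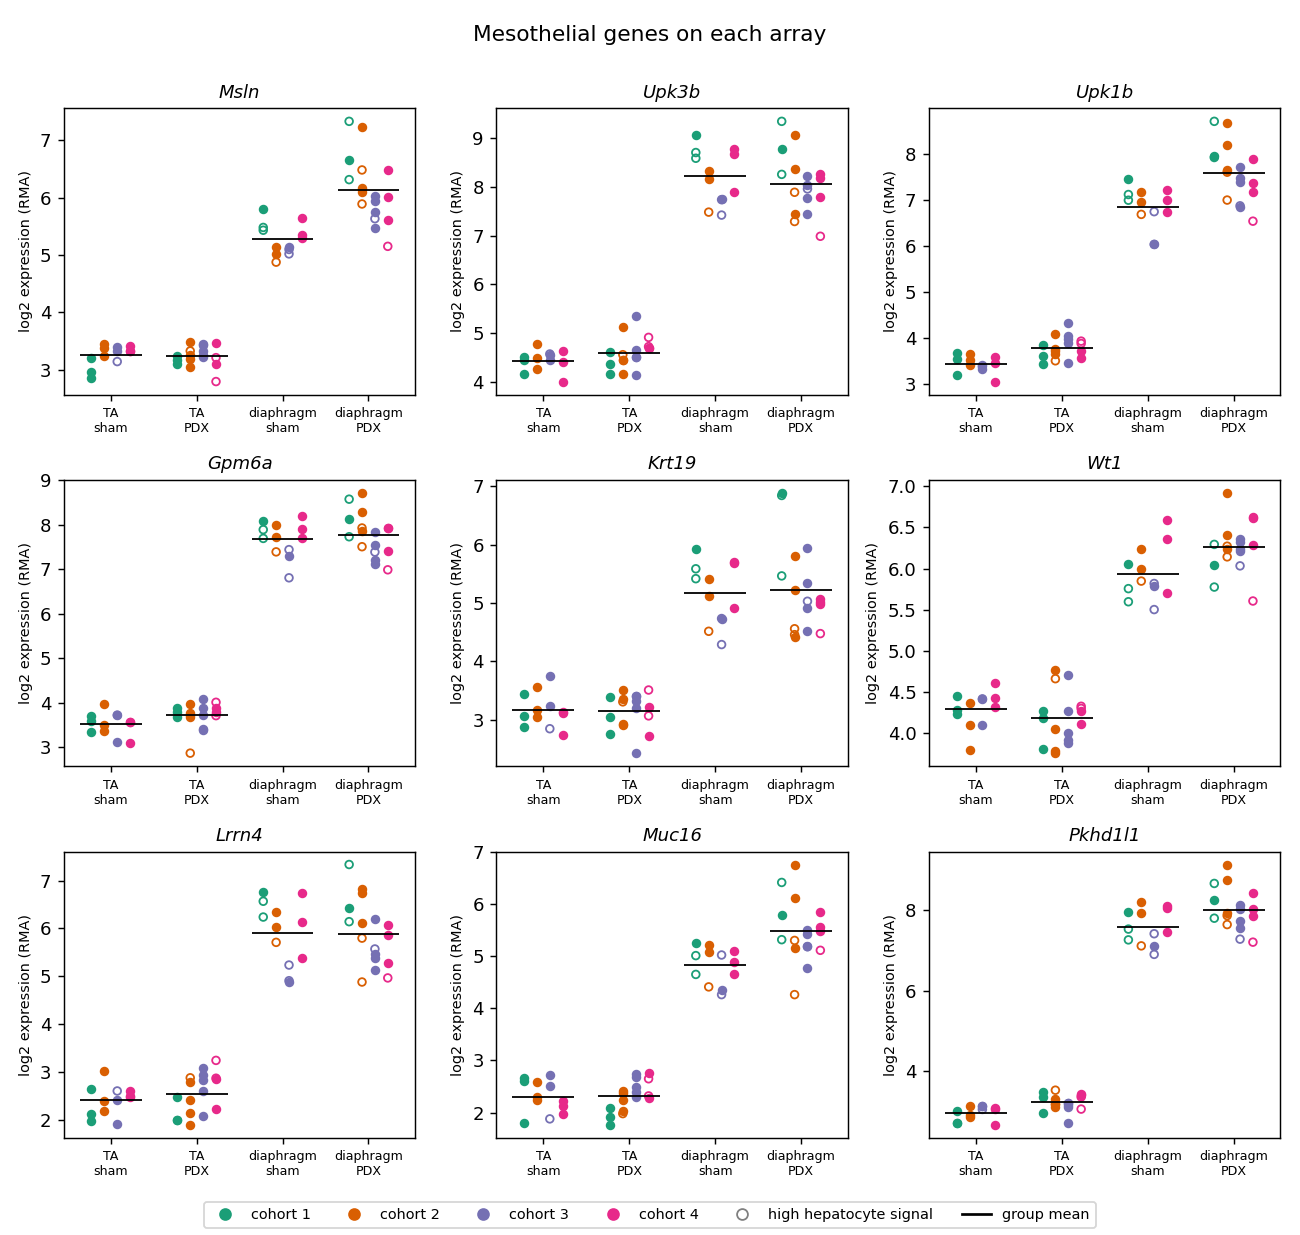
Log2 expression (vertical axis) of the 9 genes on each of the 58 arrays, by muscle (TA, tibialis anterior) and treatment, with colour for the cohort, open circles for arrays over the hepatocyte margin and black lines for group means. Every sham diaphragm array lies above every sham tibialis anterior array for all 9 genes, while PDX and sham diaphragm arrays overlap for each gene to a degree that differs between genes, from Msln, with PDX arrays at 5.15 to 7.33 and sham arrays at 4.88 to 5.81, to Upk3b, at 6.99 to 9.34 and 7.42 to 9.05.

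RefSeq promoters of mouse build GRCm38.p6, from 250 bases before to 50 after a start, were at hand for 4 of the 9 genes, in 5 windows: Upk3b (chr5:136038246-136038545, + strand), Gpm6a (chr8:54779184-54779483 and chr8:54954478-54954777, + strand), Lrrn4 (chr2:132880813-132881112, - strand) and Muc16 (chr9:18674554-18674853, - strand). All 5 were searched on both strands for the letters of 3 factors, and 4 are printed because these genes were high together in the diaphragm. GGAATG, the letters bound by TEAD factors, was in 3 of the 5 windows, against 14.7 percent of all 32851 promoters in the table. GCGTGGG, for WT1, was in 0 of the 5 (5.04 percent of all), and AGATAA, for GATA factors, was also in 0 (11.2 percent of all). Each sequence runs 5′ to 3′ on the strand of the gene, and capitals mark GGAATG or its reverse complement CATTCC, with the first letter at -241 from the start in Upk3b, -125 in Gpm6a and -196 in Lrrn4. The second Gpm6a window, which is not printed, and the Muc16 window held neither. Such a match describes letters in a window and not binding. The promoters of Msln, Upk1b, Krt19, Wt1 and Pkhd1l1 are not shown.
Upk3b promoter: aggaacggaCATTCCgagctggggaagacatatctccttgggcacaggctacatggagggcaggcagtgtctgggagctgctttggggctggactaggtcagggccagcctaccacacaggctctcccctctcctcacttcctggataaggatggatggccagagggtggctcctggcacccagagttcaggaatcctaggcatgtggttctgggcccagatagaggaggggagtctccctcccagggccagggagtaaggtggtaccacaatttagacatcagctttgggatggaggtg
Gpm6a first promoter: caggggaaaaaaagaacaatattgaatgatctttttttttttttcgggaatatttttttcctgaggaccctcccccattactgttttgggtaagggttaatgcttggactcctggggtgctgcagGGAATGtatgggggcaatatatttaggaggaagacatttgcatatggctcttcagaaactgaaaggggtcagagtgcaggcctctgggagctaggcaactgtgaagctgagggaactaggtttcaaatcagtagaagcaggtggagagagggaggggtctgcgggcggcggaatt
Lrrn4 promoter: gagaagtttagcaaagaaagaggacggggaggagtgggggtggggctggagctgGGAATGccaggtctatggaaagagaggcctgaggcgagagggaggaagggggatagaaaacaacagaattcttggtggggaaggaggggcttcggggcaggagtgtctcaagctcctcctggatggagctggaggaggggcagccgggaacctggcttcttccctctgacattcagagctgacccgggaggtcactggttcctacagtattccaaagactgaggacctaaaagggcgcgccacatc
Muc16 promoter: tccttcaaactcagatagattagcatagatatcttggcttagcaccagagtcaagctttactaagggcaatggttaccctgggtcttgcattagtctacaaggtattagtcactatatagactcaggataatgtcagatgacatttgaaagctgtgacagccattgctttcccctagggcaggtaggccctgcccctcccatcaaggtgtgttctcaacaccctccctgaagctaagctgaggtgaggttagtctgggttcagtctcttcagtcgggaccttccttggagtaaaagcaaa

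The second comparison asks what the tumour changed in the diaphragm, with PDX and sham arrays set against each other within each cohort and the 4 cohort differences averaged. It uses the same sham diaphragm arrays as the comparison between muscles. Limma called 3 of the 9 genes, all higher in PDX mice: Msln at 0.90, Upk1b at 0.78 and Muc16 at 0.69 on the log2 scale. That compares with 5.89 percent of all genes called higher and 12.5 percent in either direction. The other 6 did not pass. An unadjusted p under 0.05 in limma was seen for 5 of the 9, and for 5453 of all 23185 genes. The median of the 9 was 0.30 against -0.0043 over all genes. Bulk RNA does not show which cells, of the mouse or of the human graft, gave the higher signal, and this was not tested. Without PDX replicate 3 of cohort 4, an array over the hepatocyte margin, 5 of the 9 were called, with Wt1 and Pkhd1l1 added, and without sham replicate 1 of cohort 4 Wt1 was added. PDX replicate 3 had the lowest value of its group for all 9 genes.

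Msln, mesothelin, ran from 5.15 to 7.33 (median 6.03) over the 17 PDX diaphragm arrays and from 4.88 to 5.81 (median 5.22) over the 12 sham arrays. In cohort 1 the PDX arrays read 7.33, 6.66 and 6.32 and the sham arrays 5.81, 5.48 and 5.43. In cohort 2 the PDX arrays read 5.89, 6.48, 7.24, 6.17 and 6.10 and the sham arrays 5.15, 5.02 and 4.88. In both cohorts each PDX array exceeded each sham array. In cohort 3 the PDX arrays read 5.94, 6.03, 5.47, 5.63 and 5.76 and the sham arrays 5.10, 5.02 and 5.15, again without overlap. In cohort 4 the PDX arrays read 5.61, 6.48, 5.15 and 6.01 and the sham arrays 5.65, 5.34 and 5.30, and the groups overlapped. Msln thus stood clear of sham in 3 of 4 cohorts, a separation seen for 1.26 percent of all genes. Its mean difference was 0.90 (SE 0.14), or 1.87-fold (95% interval 0.62 to 1.18, limma adjusted p = 9.35e-05), and 16 of 17 PDX arrays lay above the sham mean of their cohort.

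Upk1b, the uroplakin of the tetraspanin family, ran from 6.53 to 8.70 (median 7.60) over PDX arrays and from 6.03 to 7.45 (median 6.97) over sham arrays. In cohort 1 the PDX arrays read 8.70, 7.95 and 7.91 and the sham arrays 7.45, 7.11 and 6.99. In cohort 3 the PDX arrays read 7.47, 7.71, 6.84, 6.87 and 7.38 and the sham arrays 6.03, 6.74 and 6.03. Neither cohort showed overlap, whereas the groups overlapped in cohort 2 (PDX 6.99 to 8.67, sham 6.68 to 7.18) and cohort 4 (PDX 6.53 to 7.87, sham 6.74 to 7.20). The mean difference was 0.78 (SE 0.16), or 1.72-fold (95% interval 0.45 to 1.11, limma adjusted p = 0.00172), with 16 of 17 PDX arrays above the sham mean of their cohort.

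Muc16, the membrane mucin that binds mesothelin, ran from 4.26 to 6.76 (median 5.43) over PDX arrays and from 4.26 to 5.25 (median 4.95) over sham arrays. In cohort 1 the PDX arrays read 6.42, 5.78 and 5.32 and the sham arrays 5.25, 4.65 and 5.01. In cohort 4 the PDX arrays read 5.56, 5.84, 5.11 and 5.48 and the sham arrays 5.11, 4.66 and 4.89. The groups were apart in these 2 cohorts, in cohort 4 by less than 0.01, and overlapped in cohort 2 (PDX 4.26 to 6.76, sham 4.41 to 5.21) and cohort 3 (PDX 4.77 to 5.51, sham 4.26 to 5.02). Standing clear of sham in at least 2 cohorts held for 3 of the 9 genes, Msln, Upk1b and Muc16, against 4.77 percent of all genes. The mean difference of Muc16 was 0.69 (SE 0.19), or 1.62-fold (95% interval 0.31 to 1.08, limma adjusted p = 0.0147), with 16 of 17 PDX arrays above the sham mean. The Muc16 call was lost with the replicate block (0.66, adjusted p = 0.0951) and without cohort 1 (adjusted p = 0.0867), 3 (0.0714) or 4 (0.0590), while its difference stayed between 0.64 and 0.72.

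Pkhd1l1, the fibrocystin-like protein, ran from 7.20 to 9.12 (median 7.92) over PDX arrays and from 6.90 to 8.19 (median 7.48) over sham arrays. Its difference of 0.45 (SE 0.17, 95% interval 0.10 to 0.79) did not pass (limma adjusted p = 0.0830), and 14 of 17 PDX arrays lay above the sham mean of their cohort. Wt1, the transcription factor, ran from 5.61 to 6.92 (median 6.27) over PDX arrays and from 5.50 to 6.58 (median 5.83) over sham arrays. Both groups overlapped for each gene. For Wt1 the difference was 0.30 (SE 0.11, 95% interval 0.072 to 0.53, limma adjusted p = 0.0786), with 15 of 17 PDX arrays above the sham mean. Cohort 3 alone held Wt1 groups without overlap, with PDX arrays at 6.03 to 6.35 and sham arrays at 5.50 to 5.82.

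Upk3b, the other uroplakin, ran from 6.99 to 9.34 (median 8.03) over PDX arrays and from 7.42 to 9.05 (median 8.24) over sham arrays. Its difference was -0.092 (SE 0.18, 95% interval -0.46 to 0.27, limma adjusted p = 0.837), and 7 of 17 PDX arrays lay above the sham mean of their cohort. Sham and PDX arrays overlapped in all 4 cohorts. Gpm6a, the glycoprotein, ran from 6.99 to 8.72 (median 7.83) over PDX arrays and from 6.81 to 8.19 (median 7.71) over sham arrays, a difference of 0.12 (SE 0.13, 95% interval -0.15 to 0.39, limma adjusted p = 0.672). Lrrn4, the leucine-rich repeat protein, ran from 4.88 to 7.33 (median 5.87) over PDX arrays and from 4.88 to 6.77 (median 6.09) over sham arrays, a difference of 0.038 (SE 0.19, 95% interval -0.35 to 0.43, limma adjusted p = 0.946). The upper bounds of Upk3b, Gpm6a and Lrrn4, at 0.27, 0.39 and 0.43, lie under the lower bound of Msln at 0.62. Krt19, the keratin, ran from 4.42 to 6.88 (median 5.03) over PDX arrays and from 4.29 to 5.93 (median 5.26) over sham arrays, a difference of 0.16 (SE 0.18, 95% interval -0.21 to 0.53, limma adjusted p = 0.679).

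**Figure D2:**
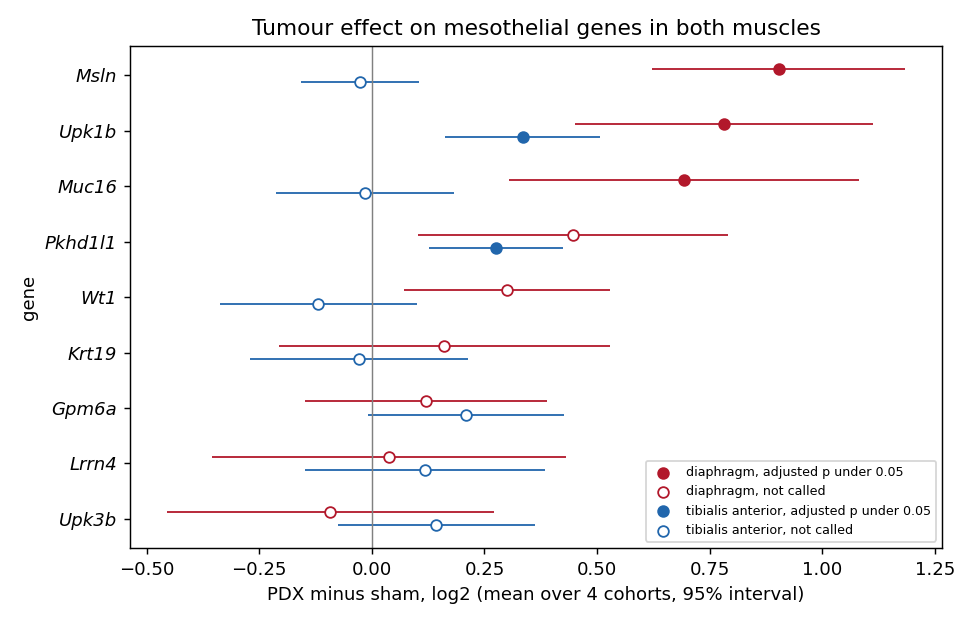
Difference between PDX and sham (horizontal axis, log2, mean over 4 cohorts, bars for the 95% interval) of the 9 genes in the diaphragm (red) and the tibialis anterior (blue), with filled circles at a limma adjusted p under 0.05. Msln, Upk1b and Muc16 were called in the diaphragm at 0.90, 0.78 and 0.69, and Upk1b and Pkhd1l1 in the tibialis anterior at 0.33 and 0.27.

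The 9 genes were read from the same RNA on each array, so their deviations can be set side by side array by array. The deviation of Msln from the sham mean of its cohort was larger than that of Upk3b on 17 of 17 PDX arrays and larger than that of Gpm6a on 17 of 17. It exceeded that of Upk1b on 10, that of Muc16 on 11, that of Krt19 on 14 and those of Wt1, Lrrn4 and Pkhd1l1 on 15 each. The difference for Msln minus that for Upk3b was 1.00 on average, and 1.19, 1.34, 0.43 and 1.03 in cohorts 1 to 4. Msln and Upk3b had the largest and the smallest mean difference of the 9, so a wide gap between them follows in part from that choice. The arrays of a cohort also share its sham mean. These counts and gaps are descriptions with no test of their own. The plot of the deviations shows Msln above the line of equal deviation throughout for Upk3b and on both sides of it for Upk1b.

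**Figure D3:**
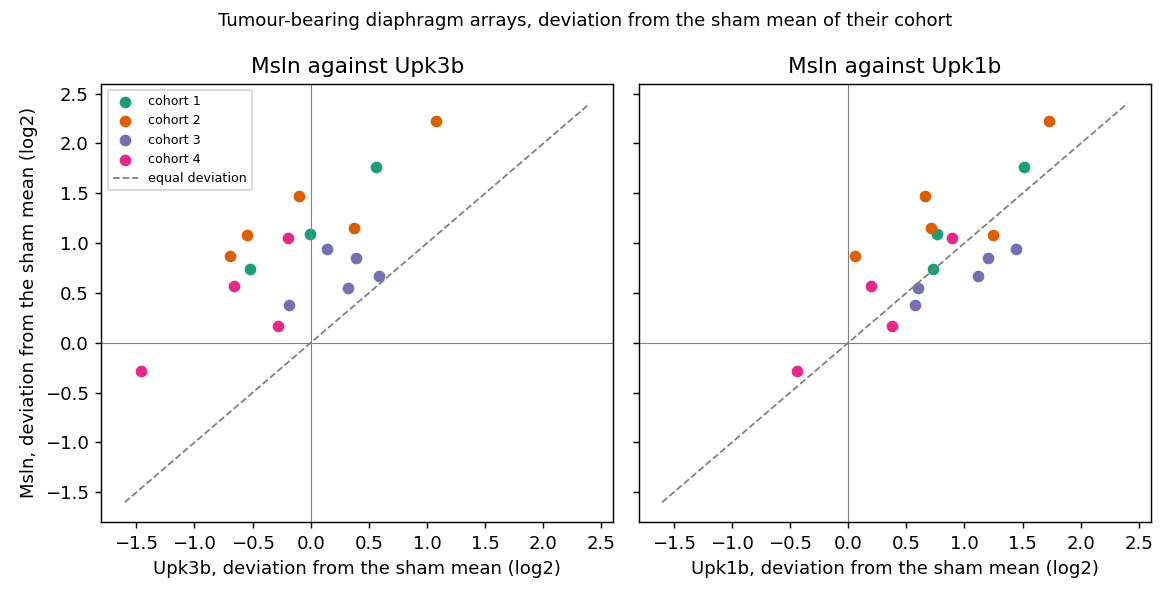
Deviation of Msln (vertical axis) from the sham mean of its cohort on each of the 17 PDX diaphragm arrays, against that of Upk3b (left) and Upk1b (right), in log2, with colour for the cohort and a dashed line for equal deviations. All 17 points lie above the line for Upk3b, and 10 of 17 do for Upk1b.

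The cohort estimates differed in size from cohort to cohort, and cohort and tumour cannot be told apart. For Msln they were 1.20, 1.36, 0.68 and 0.38 in cohorts 1 to 4, for Upk1b 1.00, 0.88, 0.99 and 0.26, and for Muc16 0.87, 0.62, 0.67 and 0.61. For Upk3b they were 0.010, 0.021, 0.25 and -0.65, and for Krt19 0.75, -0.12, 0.56 and -0.55. In cohort 4 Upk3b, Gpm6a, Krt19 and Lrrn4 all had negative estimates, between -0.37 and -0.65, with sham and PDX arrays that overlapped. Arrays within the hepatocyte margin numbered 1, 2, 1 and 3 of the 3 sham arrays in cohorts 1 to 4. Among PDX arrays they numbered 1 of 3, 3 of 5, 4 of 5 and 3 of 4. The part of this imbalance in the cohort estimates was not tested. Positive differences in all 4 cohorts were seen for 5 of the 9 genes, Msln, Upk1b, Wt1, Muc16 and Pkhd1l1, and for 12.2 percent of all genes. A test of whether the 4 cohort differences are unequal called 0 of the 9 by limma's moderated F test (0 at an unadjusted p under 0.05, lowest adjusted p 0.703), and 1 gene of all 23185 (0.00431 percent). With 3 to 5 arrays a group, a missed p does not show that the tumours acted alike.

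**Figure D4:**
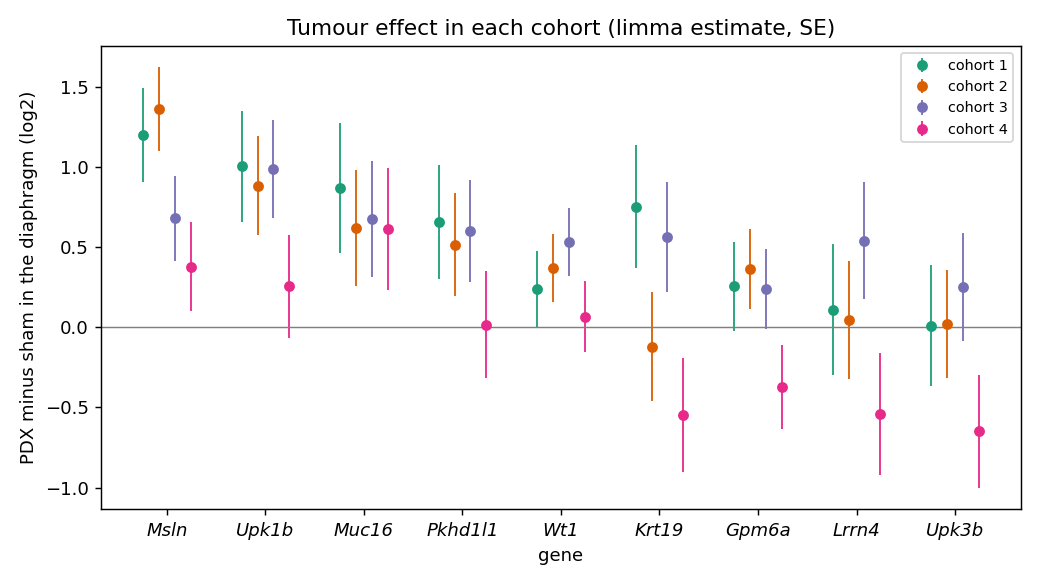
Difference between PDX and sham in the diaphragm (vertical axis, log2, bars for the SE of the limma estimate) of the 9 genes, by cohort in colour. Msln, Upk1b, Muc16, Pkhd1l1 and Wt1 are above 0 in all 4 cohorts, and cohort 4 is the lowest for each of the 9, though for Muc16 by little, at 0.61 against 0.62 in cohort 2.

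The hepatocyte RNA was set beside these results. Without the arrays over the margin, 7 sham and 11 PDX arrays were left, and Msln (0.88, limma adjusted p = 0.0124), Upk1b (0.85, 0.0118) and Muc16 (0.76, 0.0352) kept their calls. That setting did not remove hepatocyte RNA: arrays with a hepatocyte mean of up to 7.51 (PDX) and 7.40 (sham) stayed in. The median difference of the 13 hepatocyte genes was then 0.82, with 0 called, against -0.11 over all arrays. With only arrays whose hepatocyte mean was under 5, which left 5 sham and 8 PDX arrays of cohorts 2 to 4, Upk1b passed (0.94, adjusted p = 0.0247). Msln (0.84, adjusted p = 0.0548) and Muc16 (0.83, adjusted p = 0.0757) did not, at differences close to those over all arrays. With the hepatocyte mean as a covariate, Msln was at 0.90 (adjusted p = 2.2e-05) and 5 of the 9 were called, Wt1 and Pkhd1l1 included. The share of all genes called in either direction moved as well, from 12.5 percent to 6.20 percent without the arrays over the margin, 2.82 percent in the arrays of a low hepatocyte mean and 15.0 percent with the covariate.

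The third comparison asks about the tibialis anterior, which lies far from the graft and where Msln, Krt19, Lrrn4, Muc16 and Pkhd1l1 were near background in both sham and PDX mice. Limma called 2 of the 9 genes, both higher in PDX mice (6.32 percent of all genes called higher): Upk1b and Pkhd1l1. Upk1b ran from 3.43 to 4.32 (median 3.76) over the 17 PDX arrays and from 3.06 to 3.67 (median 3.44) over the 12 sham arrays, a difference of 0.33 (SE 0.083, limma adjusted p = 0.00673). Pkhd1l1 ran from 2.72 to 3.53 (median 3.21) over PDX arrays and from 2.67 to 3.15 (median 3.03) over sham arrays, a difference of 0.27 (SE 0.072, limma adjusted p = 0.0103). The groups overlapped for both, and the sham means of both lay under the background measure. Both calls were lost with all 58 arrays in the fit (adjusted p = 0.0880 for Upk1b and 0.193 for Pkhd1l1) and with the cohorts as replicates (0.0632 and 0.128). Without cohort 3 the Upk1b call was lost, and without cohort 1, 2 or 4 the Pkhd1l1 call was lost. Msln was at -0.027 (SE 0.064, 95% interval -0.16 to 0.10, limma adjusted p = 0.873) and Muc16 at -0.015 (SE 0.096, limma adjusted p = 0.957), with both genes under the background measure in sham and PDX limb muscle.

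The difference between the muscles in their response was tested directly. Limma called 2 of the 9 genes, Msln and Muc16, with a larger rise in the diaphragm (3.66 percent of all genes called higher, 6.33 percent in either direction). For Msln the diaphragm difference exceeded that in the tibialis anterior by 0.93 (SE 0.15, limma adjusted p = 4.11e-05), and this call held in each of the alternatives run. For Muc16 the excess was 0.71 (SE 0.22, limma adjusted p = 0.0371), but the call was lost in 17 of 58 fits without a given array and without cohort 1, 3 or 4 (adjusted p from 0.0537 to 0.333). Upk1b had an excess of 0.45 (SE 0.18, limma adjusted p = 0.155) and Wt1 of 0.42 (SE 0.16, limma adjusted p = 0.107), neither of which passed. A gene at background in the limb muscle can show little change there, so these excesses compare a measurable level with one near the floor.

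Other genes of the mesothelium were taken from a list of 14. In sham mice 11 of the 14 were higher in the diaphragm and 1 lower, against 15.2 percent of all genes called higher and 24.5 percent lower. Their median was 1.58 on the log2 scale. Rspo1, a secreted amplifier of Wnt signalling, was higher by 2.86 (SE 0.15, limma adjusted p = 3.37e-21), Efemp1, an extracellular matrix glycoprotein, by 2.29 (SE 0.13, 3.8e-20) and Lrp2, an endocytic receptor, by 2.29 (SE 0.14, 1.41e-18). The limb muscle mean of Lrp2, 2.76, lay under the background measure, so its difference is a lower bound. Calb2, the calcium-binding protein calretinin, was the gene called lower, at -0.24 (SE 0.067, limma adjusted p = 0.0046), with diaphragm and limb muscle means of 1.48 and 1.72, both under the background measure. In the diaphragm of PDX mice 6 of the 14 rose and 0 fell, with a median of 0.19, against 5.89 percent of all genes called higher. Anxa8, a calcium-dependent phospholipid-binding protein, rose by 1.05 (SE 0.18, limma adjusted p = 0.000394). Pdpn, podoplanin, a mucin-type membrane protein also found on lymphatic endothelium, rose by 0.72 (SE 0.11, limma adjusted p = 0.000141). Has1, a hyaluronan synthase, rose by 0.70 (SE 0.16, limma adjusted p = 0.00491) from a sham mean of 3.20, under the background measure, so the size is a lower bound. Ildr2, Aldh1a2 and Prr15 made up the 6, at 0.49 to 0.67, and are named to complete the count, after their values were seen. With only arrays of a low hepatocyte mean 1 of the 14 was called, and without the arrays over the margin 5 were. The shares of all genes called in either direction were 2.82 and 6.20 percent. Of the 3 genes furthest apart between the muscles, none was called for the tumour: Rspo1 was at 0.18 (limma adjusted p = 0.529), Efemp1 at -0.18 (0.422) and Lrp2 at -0.13 (0.742). In the tibialis anterior 1 of the 14 rose, Cldn15, a tight junction claudin, by 0.30 (SE 0.082, limma adjusted p = 0.0121), and 1 fell, Efemp1, at -0.57 (SE 0.10, 0.000366), against 6.32 percent of all genes called higher and 6.53 percent lower, so this count is near the background. The difference between the muscles was called for 4 of the 14, all larger in the diaphragm, against 3.66 percent of all genes called higher. Among them were Anxa8 (under the background measure in sham limb muscle, at 3.47) at 1.13, Pdpn at 1.02 and Ildr2, an immunoglobulin-like membrane protein, at 0.84.

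**Figure D5:**
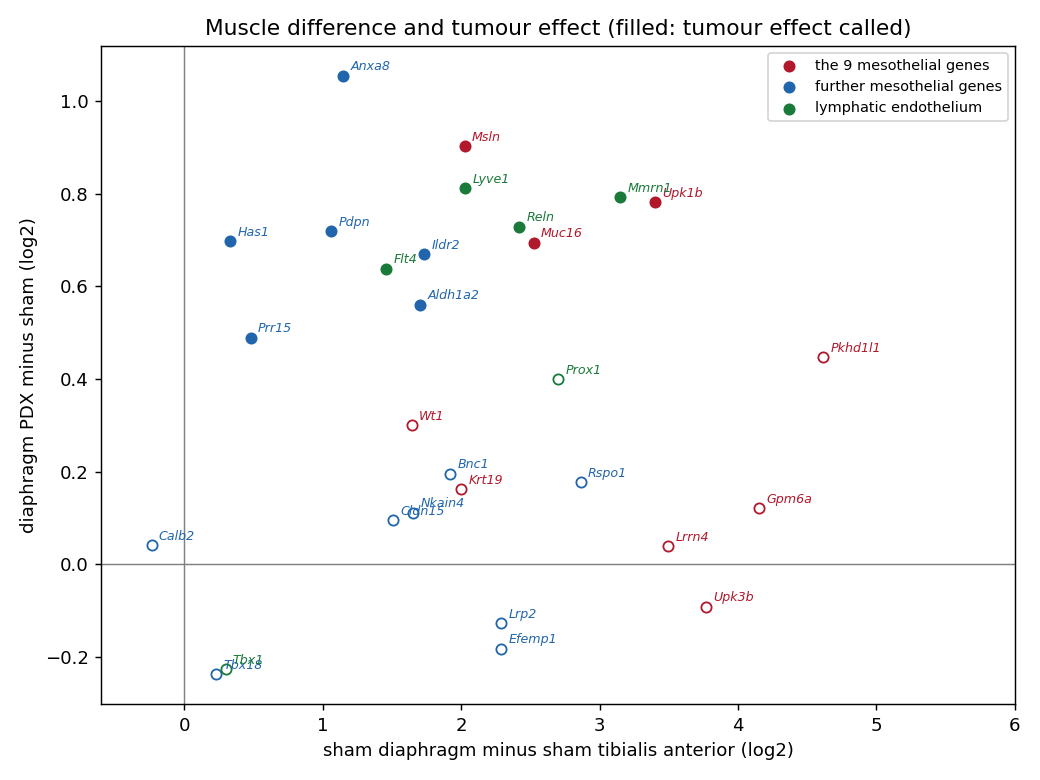
Difference between sham muscles (horizontal axis, log2) against the difference between PDX and sham in the diaphragm (vertical axis, log2) for the 9 genes (red), 14 further mesothelial genes (blue) and 6 lymphatic genes (green), with filled circles where the tumour difference had a limma adjusted p under 0.05. Both axes use the same sham diaphragm arrays. Msln, Upk1b and Muc16 lie at 0.90, 0.78 and 0.69 on the vertical axis, while Gpm6a, Lrrn4 and Upk3b, far to the right at 4.15, 3.50 and 3.77, lie near 0. Pkhd1l1, the furthest to the right of the 9 at 4.62, lies at 0.45, and Upk1b is at 3.40 on the horizontal axis.

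Keratins and junction genes of simple epithelia, which mesothelium shares, gave 8 of 12 higher and 0 lower between sham muscles. That compares with 15.2 percent of all genes called higher and 24.5 percent lower. Ezr, ezrin, which ties microvilli to the actin cortex, was higher by 1.90 (SE 0.13, limma adjusted p = 5.07e-17), Krt18 by 0.89 (SE 0.23, 0.00196) and Krt7 by 0.85 (SE 0.12, 1.17e-07). Hepatocytes express Krt18 as well, and 4 of the 12 were called without the arrays over the hepatocyte margin, against 25.1 percent of all genes. In PDX diaphragm 2 of the 12 rose, Ezr by 0.49 (SE 0.13, limma adjusted p = 0.0150) and Krt7 by 0.42 (SE 0.081, 0.000982), and 0 fell, against 5.89 percent of all genes called higher. The count was 4 of 12 without the arrays over the margin or with the hepatocyte mean as a covariate, 1 with only arrays of a low hepatocyte mean, 1 without cohort 1, 1 without cohort 2 and 0 with cohorts as replicates. Of 10 measured genes linked to the passage of mesothelial cells to a mesenchymal state, 2 rose in PDX diaphragm and 0 fell: Vim, the intermediate filament vimentin, by 0.47 (SE 0.084, limma adjusted p = 0.000467) and Tgfb1, a growth factor that drives that passage, by 0.31 (SE 0.094, 0.0286). The share of all genes called higher was 5.89 percent, and the count did not hold: it was 0 with cohorts as replicates, without cohort 2 or with only arrays of a low hepatocyte mean, and 1 with array weights, with an additive cohort term, without cohort 1 or without the arrays over the margin. Leaving out each array in turn gave 1 to 3, with 1 for each of sham replicate 3 of cohort 1, sham replicate 1 of cohort 2, sham replicate 3 of cohort 3, sham replicate 2 of cohort 4 and PDX replicate 2 of cohort 1. Both genes are also expressed by fibroblasts, endothelium and leukocytes. Snai1, Snai2, Twist1, Zeb1 and Zeb2, transcription factors of the same list and named after their values were seen, were not called, at -0.23 to 0.12. Other uroplakins were not called in PDX diaphragm by limma (0 of 4, none at an unadjusted p under 0.05).

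Markers of lymphatic endothelium, which lies beneath the mesothelium, were also higher in the diaphragm. In sham mice 6 of 6 measured genes passed, with a median of 2.22, against 15.2 percent of all genes called higher. Mmrn1, a secreted multimerin, was higher by 3.15 (SE 0.13, limma adjusted p = 1.7e-24), Prox1, the transcription factor of lymphatic identity, by 2.70 (SE 0.23, 2.48e-13) and Reln, reelin, by 2.42 (SE 0.078, 3.18e-29). The limb muscle means of Prox1 and Reln, 3.02 and 3.50, lay under the background measure, so these differences are lower bounds. All 6 stayed called higher without the arrays over the hepatocyte margin and with only arrays of a low hepatocyte mean. In these settings 25.1 and 24.4 percent of all genes were called in either direction. Prox1 had the largest SE of the 6, and the part of hepatocyte RNA in the size of its difference was not tested. In PDX diaphragm 4 of the 6 rose and 0 fell, with a median of 0.68, against 5.89 percent of all genes called higher. Lyve1, a hyaluronan receptor, rose by 0.81 (SE 0.12, limma adjusted p = 5.43e-05), Mmrn1 by 0.79 (SE 0.15, 0.000629), Reln by 0.73 (SE 0.083, 5.84e-06) and Flt4, the receptor VEGFR3, by 0.64 (SE 0.086, 3.4e-05). The mean of the 6 ran from 6.82 to 7.84 over PDX diaphragm arrays and from 6.64 to 6.96 over sham diaphragm arrays. These markers moved beside Msln, Upk1b and Muc16, and their part in the result for those genes was not tested. Without the arrays over the hepatocyte margin 4 of the 6 were still called, and 3 with only arrays of a low hepatocyte mean. The shares of all genes called in either direction were 6.20 and 2.82 percent. In the tibialis anterior of PDX mice 0 of the 6 rose and Lyve1 fell, at -0.29 (SE 0.083, limma adjusted p = 0.0175). There 6.53 percent of all genes were called lower.

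Markers of other cells that a diaphragm sample could hold were counted in the same comparison of PDX with sham diaphragm, in which 5.89 percent of all genes were called higher and 6.58 percent lower. Of 8 fibroblast genes 1 rose, Pi16, by 0.66 (SE 0.14, limma adjusted p = 0.0017), and 1 fell, Col15a1, at -0.51 (SE 0.10, 0.00127). Of 5 adipocyte genes 1 fell, Lep, leptin, at -0.74 (SE 0.21, limma adjusted p = 0.0179), and of 6 smooth muscle and pericyte genes 1 fell, Rgs5, at -0.40 (SE 0.081, 0.0015). Without the arrays over the hepatocyte margin the counts were 1 higher and 0 lower for fibroblasts, 2 lower for adipocytes and 0 for smooth muscle. No tendon gene (0 of 5) and no pancreatic acinar gene (0 of 8) was called by limma (0 and 0 at an unadjusted p under 0.05), and the mean of the acinar genes lay between 2.48 and 2.92 on every PDX diaphragm array, under the background measure.

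How the 9 genes varied together was described from the deviations of the 29 diaphragm arrays from their group means. Over the 36 pairs of the 9 genes Pearson's r ran from 0.51 to 0.89 with a median of 0.74, a description of shared variation, in which depth of signal and the share of other tissue are common to the pair. For Msln against the other 8, r ran from 0.58 (Lrrn4) to 0.80 (Upk1b) and Spearman's rho from 0.51 to 0.73, with permutation p-values adjusted over the 8 pairs of 0.00024 to 0.0183 for r and 0.00104 to 0.0252 for rho (100000 permutations within groups, two-sided). Without the 2 arrays farthest from the median of Msln, r ran from 0.53 to 0.73. Within single cohorts all 32 values were positive, from 0.076 to 0.99, over 6 to 8 arrays each. On the 11 arrays over the hepatocyte margin the median deviation was below 0 for each of the 9 genes, from -0.40 (Pkhd1l1) to -0.13 (Msln), and on the other 18 it was above 0, from 0.033 (Msln) to 0.20 (Upk3b). Single arrays differed: of 2 over the margin, PDX replicate 3 of cohort 4 was the lowest of its group for all 9 genes and PDX replicate 1 of cohort 1 the highest of its group for 8 of the 9. Over the 29 arrays the r of the deviations with the hepatocyte mean was negative for each of the 9 genes, from -0.70 (Pkhd1l1) to -0.42 (Msln). The part of hepatocyte RNA in the correlations between genes was not tested beyond leaving out the arrays over the margin. Without the arrays over the margin 2 of the 8 pairs passed in the permutation test, Msln with Upk1b and Msln with Pkhd1l1 (adjusted p = 0.0490 for both), and Msln with Lrrn4 fell to r = 0.26.

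The genes outside the 9 whose deviations over the 29 diaphragm arrays were most like the mean of the 9 were Ano1, a chloride channel gated by calcium, at r = 0.97, Cldn15, the claudin, at 0.91, and Twsg1, a secreted binder of bone morphogenetic proteins, at 0.91. Csrp2, a LIM domain protein, stood at 0.90, Fndc1, a fibronectin domain protein, at 0.89, Bnc1, a zinc finger protein, at 0.89, Stk26, a protein kinase, at 0.89 and Rspo1 at 0.89. Cldn15, Bnc1 and Rspo1 were among the 14 further mesothelial genes. Over the 14 arrays with a low hepatocyte mean the r of Ano1 was 0.96 and that of Bnc1, the lowest of the 8, was 0.82. These 14 arrays are among the 29 by which the 8 genes were picked, so a high r there follows in part from that choice. All 8 were higher in sham diaphragm than in sham tibialis anterior, from 0.77 (Fndc1, limma adjusted p = 0.000162) to 2.86 (Rspo1, 3.37e-21). Of all genes 15.2 percent were called higher there. In PDX diaphragm Csrp2 alone among the 8 was called, at 0.34 (SE 0.10, limma adjusted p = 0.0326), while Ano1 stood at 0.15 (SE 0.16, 0.675) and Stk26 at -0.23 (SE 0.19, 0.543).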

How the data were processed

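Total RNA from tibialis anterior and diaphragm was labelled with the WT Plus kit for Affymetrix arrays, per the labels' protocols. The authors deposited 1 log2 value per probe set and array, an RMA summary for which the submitters' processing notes name affy 1.36.1 and R 2.15.1. How probe sets were defined, which build applied and whether cohorts were processed jointly is not given in the sources used here. All 58 columns matched a sample. Of 25206 probe sets, 2021 without a symbol were left out and none had several symbols.

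From these values limma 3.58.1 (R 4.3.3, statmod 1.5.0) fitted 16 group means for comparisons between muscles and 8 for those within a muscle. Contrasts averaged the 4 cohorts equally, tests were two-sided, p-values were adjusted by Benjamini-Hochberg over 23185 genes, and a gene was called at an adjusted p under 0.05. No filter was applied, and fold is 2 to the log2 difference. The number of arrays limits the precision. The fits were tested on simulated data.

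The 9 genes and the lists were chosen with earlier results of these data known. Named genes were the 9, up to 3 per list with the largest called difference (or the 2 of lowest p), and the 8 most similar by r. Alternatives covered a filter on dim genes, scaling, variance prior, array weights, the model, the arrays in the fit, replicate block, arrays and cohorts left out and hepatocyte RNA. Settings with a low hepatocyte mean or with it as a covariate were chosen after seeing the data. Replicate numbers were checked for pairing, but the check cannot tell whether both muscles came from the same mouse. The main fits treat the arrays as independent.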

Additional observations from a re-analysis of the deposited data

Results flagged for a closer look

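Over 54 groups of 4 or 5 arrays, 5 held an array far from the rest of its group by Dixon's criterion, where chance flags about 1 in 20 groups. Krt19 read 4.48 on replicate 3 of the cohort 4 PDX diaphragm, against 4.98 to 5.07 on the other 3 arrays, and that array also had a hepatocyte mean of 10.9. The other 4 were limb muscle arrays. Upk3b read 4.92 on replicate 4 of the cohort 4 PDX tibialis anterior, against 4.69 to 4.73 on the others, with a hepatocyte mean of 6.41. Gpm6a read 2.87 on replicate 1 of the cohort 2 PDX tibialis anterior, against 3.69 to 3.97, with a hepatocyte mean of 4.92. Krt19 read 2.43 on replicate 4 of the cohort 3 PDX tibialis anterior, against 3.20 to 3.42, with a hepatocyte mean of 3.79. Pkhd1l1 read 2.72 on replicate 1 of the same group, against 3.11 to 3.22, with a hepatocyte mean of 3.55. The part of hepatocyte RNA in these values was not tested.

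For 2 of the 9 genes the response to the tumour differed between the muscles in a test of the difference itself: the diaphragm difference exceeded that of the tibialis anterior by 0.93 for Msln and by 0.71 for Muc16 (limma adjusted p = 4.11e-05 and 0.0371).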

How the results depend on the processing

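All 9 genes stayed called higher in sham diaphragm in all 40 alternatives. In the diaphragm with and without a tumour, the 3 calls became 5 with array weights, 5 with the hepatocyte mean as a covariate and 1 with only arrays of a low hepatocyte mean, 4 with all arrays in the fit (Pkhd1l1 added, adjusted p = 0.0139), 2 without cohort 1 and 2 without cohort 3, and 3 to 5 with each array left out in turn. Of the further mesothelial genes 1 was called with only arrays of a low hepatocyte mean. In the tibialis anterior the 2 calls became 1 with the filter on dim genes, 0 with all arrays in the fit, 0 with cohorts as replicates, and 1 without cohort 1, 1 without 2, 1 without 3 and 1 without 4. For the difference between the muscles the 2 calls became 4 with array weights, and 1 with arrays centred on their medians, with an additive cohort term, with cohorts as replicates, without cohort 1, 3 or 4, or with only arrays of a low hepatocyte mean. Leaving out each array gave 1 to 3. Of the Msln pairs 2 passed without the arrays over the hepatocyte margin. The cause was not tested.

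Same-numbered arrays deviated together (r over 0.1) in 4 of 29 pairs across muscles, and in 5 of 12 diaphragm and 0 of 12 tibialis anterior pairs of sham with PDX. The r exceeded the mean r with other numbers in 19, 7 and 4 of these pairs. Both muscles of a mouse may share little deviation, so whether same-numbered arrays come from the same mouse cannot be told. With the replicate block 9, 3, 2 and 1 genes were called in the 4 comparisons (sham muscles, diaphragm, tibialis anterior, difference), Wt1 was called in the diaphragm (adjusted p = 0.0362) and Muc16 was not (0.0951).

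Estimates that changed sign were all uncalled. In the diaphragm these were Lrrn4 with the replicate block (-0.061) and without cohort 3 (-0.13), Krt19 without cohort 1 (-0.035) and in low-hepatocyte arrays (-0.21), and Upk3b without cohort 4 (0.094). Leaving out each array moved Lrrn4 from -0.049 to 0.12. In the tibialis anterior they were Muc16 with median centring (0.0034), without cohort 1 (0.13) or 2 (0.035) and with the covariate (0.039), Krt19 with the replicate block (0.0060) and without cohort 3 (0.0016), and Msln without cohort 4 (0.035) and with the covariate (0.0012). Leaving out each array moved Krt19 from -0.083 to 0.029, Msln from -0.054 to 0.0025 and Muc16 from -0.085 to 0.028. For the difference between the muscles they were Krt19 without cohort 1 (-0.019) and in low-hepatocyte arrays (-0.065), Upk3b (0.038), Gpm6a (0.15) and Lrrn4 (0.17) without cohort 4, and Lrrn4 without the arrays over the margin (0.026) and in low-hepatocyte arrays (0.059). Leaving out each array moved Lrrn4 from -0.17 to 0.0016. Signal near background limits what the tibialis anterior can show.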
